A study of Mus musculus with 12 samples.

Results

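The tricarboxylic acid (TCA) cycle enzymes described here are encoded by 9 genes: Cs, Idh2, Idh3a, Idh3b, Idh3g, Ogdh, Suclg1, Fh1 and Mdh2. They were chosen by symbol and not by a cut on their values, though with earlier results of these data known. All 9 of the 9 were found among the 23183 gene symbols measured in each library, and all 9 passed the filter on low values, their lowest level in any library being 26.5 FPKM, a level that allows for transcript length and library depth. RNA-seq was performed on kidney cortex of male C57BL/6N mice (the sample labels give C57BL/6), 6 to 7 weeks old, on day 7 after unilateral ureteral obstruction (UUO), which blocks the outflow of urine from 1 kidney. The 12 libraries form 4 groups of 3: the contralateral (CL) and the UUO kidney of wild-type (WT) mice, and the CL and the UUO kidney of Acot12-/- mice. The Acot12-/- mice carry a germline mutant allele made with an RNA-guided nuclease and so in all tissues. The CL kidney, the control throughout, comes from an operated animal and is not an unoperated kidney.

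The TCA cycle runs in the mitochondrial matrix, where the acetyl group of acetyl-CoA is joined to oxaloacetate and then oxidized to carbon dioxide, with the electrons passed to NADH and FADH2 for the respiratory chain. Proximal tubule cells of the kidney cortex are rich in mitochondria and rely on oxidative metabolism, largely of fatty acids, to drive reabsorption. ACOT12, found in the cytosol and peroxisomes, hydrolyses acetyl-CoA. Whether it affects the acetyl-CoA that enters the cycle in the matrix was not tested.

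Acot12 itself was read first as a check of the labels. It measured 73.8, 52.7 and 78.1 FPKM in WT CL kidneys and 9.98, 16.7 and 21.2 FPKM in WT UUO kidneys. In Acot12-/- mice the levels were 9.14, 9.01 and 6.80 FPKM in CL and 3.28, 1.80 and 3.86 FPKM in UUO kidneys. Every Acot12-/- library was lower than every WT library of the same kidney, with a log2 difference of −2.88 in CL (SE 0.28, adjusted p = 0.000969) and −2.07 in UUO kidneys (SE 0.28, adjusted p = 0.0459). The call in UUO kidneys was lost in 6 of the other settings tried with all libraries and without any 1 library other than the WT UUO library of mouse 1 (adjusted p 0.00731 to 0.355 over all settings), with the direction kept in each. Acot12 overlaps an annotated antisense gene, 4833422C13Rik. Adjusted p-values are from limma on log2(FPKM + 1) over all 13243 genes tested, a gene was called at an adjusted p under 0.05, and n = 3 libraries a group throughout. The labels do not say that replicates are separate mice, so p-values measure the spread between these libraries, which may be technical. They are called mice 1 to 3 here.

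Depth, read from the steps between low values, was 12600000 to 15860000 fragments in the CL and 18350000 to 22780000 in the UUO libraries. This puts about 1257 to 13344 fragments behind each value of the 9 genes. Median-ratio size factors of the values lay between 0.9765 and 1.023, so the values may have been scaled between libraries before deposit. These numbers would then follow a scaled library size, and a difference in depth between CL and UUO libraries cannot be read from them. Replicates correlated at 0.983 to 0.992 in the WT groups, at 0.974 to 0.989 in Acot12-/- UUO and at 0.942 to 0.984 in Acot12-/- CL kidneys. The CL library of Acot12-/- mouse 2 stood apart from the others of its group in a way that followed the GC content of the transcripts, and results that rest on it are given with and without it. Of the kidney markers, proximal tubule genes were present in all 12 libraries: Slc34a1, a phosphate transporter of that segment, averaged 802 FPKM in WT CL and 219 FPKM in WT UUO kidneys. The injured-tubule marker Havcr1 averaged 3.30 FPKM in WT CL against 669 FPKM in WT UUO kidneys.

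The 9 genes lie on 9 chromosomes (positions on GRCm38, GENCODE vM21). Cs spans chr10:128337734-128362479 on the plus strand in 11 exons of its longest coding transcript, Idh2 spans chr7:80094846-80115392 on the minus strand in 11 exons and Idh3a spans chr9:54586334-54604661 on the plus strand in 11 exons. Idh3b lies at chr2:130279309-130284547 (minus, 12 exons), Idh3g at chrX:73778963-73786897 (minus, 13 exons) and Ogdh at chr11:6291633-6356642 (plus, 23 exons). Suclg1 lies at chr6:73248382-73276911 (plus, 9 exons), Fh1 at chr1:175600374-175625635 (minus, 10 exons) and Mdh2 at chr5:135778480-135790398 (plus, 9 exons). Idh3b overlaps Nop56 and Fh1 overlaps Kmo, both on the opposite strand, while Cs overlaps the snoRNA gene Gm23182 and Idh2 the unclassified gene Gm45203 on their own strands. The kit keeps strand, but whether the counting used it is not given in the sources used here, so reads of such overlaps may not have been told apart.

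Promoters are shown for 3 members with 1 RefSeq window each: Suclg1, which fell most with UUO in WT kidneys, Cs, which had the smallest fold change, and Idh3g, whose profile over the libraries was closest to the median of the 9. Each is 300 bases (250 before to 50 after the start, RefSeq, GRCm38.p6, read 5′ to 3′ on the gene's own strand), at chr6:73248255-73248554 (plus) for Suclg1, chr10:128337477-128337776 (plus) for Cs and chrX:73786848-73787147 (minus) for Idh3g, and capitals mark the motifs searched for.
Suclg1: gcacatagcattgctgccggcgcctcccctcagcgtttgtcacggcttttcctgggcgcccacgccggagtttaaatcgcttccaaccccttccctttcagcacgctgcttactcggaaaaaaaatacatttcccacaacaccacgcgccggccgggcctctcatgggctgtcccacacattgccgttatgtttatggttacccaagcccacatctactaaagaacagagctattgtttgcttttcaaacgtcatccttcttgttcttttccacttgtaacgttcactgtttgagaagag
Cs: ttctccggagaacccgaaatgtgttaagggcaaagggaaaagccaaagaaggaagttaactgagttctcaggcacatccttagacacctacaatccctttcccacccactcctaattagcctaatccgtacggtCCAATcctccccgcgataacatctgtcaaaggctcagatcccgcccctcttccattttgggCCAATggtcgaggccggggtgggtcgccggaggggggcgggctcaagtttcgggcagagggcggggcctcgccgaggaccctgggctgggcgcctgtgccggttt
Idh3g: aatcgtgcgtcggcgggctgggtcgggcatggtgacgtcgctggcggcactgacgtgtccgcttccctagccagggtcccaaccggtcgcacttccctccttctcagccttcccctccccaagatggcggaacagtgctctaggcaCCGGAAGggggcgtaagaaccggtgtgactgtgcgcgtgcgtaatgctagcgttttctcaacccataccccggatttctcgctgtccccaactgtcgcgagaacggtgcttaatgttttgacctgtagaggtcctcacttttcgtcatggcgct
The motifs, searched on both strands, were AAGGTCA (the estrogen-related receptor half-site), GCATGCG (the NRF1 core), CCGGAAG (an ETS core bound by GABPA) and CCAAT. Cs held CCAAT at bases 135 to 139 and 196 to 200, Idh3g held CCGGAAG at bases 147 to 153, and these letters were not in the Suclg1 window. RefSeq windows were at hand for 8 of the 9 genes (13 windows, Idh3a without an entry). CCAAT was in 10 of the 13 windows, from 5 of the 8 genes (Cs, Fh1, Idh2, Idh3b and Ogdh), and in 37.41% of all 32851 windows searched. CCGGAAG was in 2 of the 13 (Idh3b and Idh3g) and in 8.86% of all. AAGGTCA was found in 1 of the 13, of Ogdh (4.72% of all windows), and GCATGCG in 2 of the 13, also of Ogdh alone (3.58% of all). These matches describe letters in the windows and say nothing about binding.

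The cycle enzymes were lower in UUO than in CL kidneys of both genotypes. In counts of genes with UUO, fell and rose mean called lower and called higher. In WT kidneys 8 of the 9 genes fell and none rose, and the other, Ogdh, was lower but not called. Of all genes tested 47.5% were called there in either direction and 23.9% were called lower. In Acot12-/- kidneys 9 of 9 fell, where 53.7% of all genes were called and 27.2% were called lower. Their median on the log2 scale was −1.46 in WT and −1.56 in Acot12-/- kidneys, beside 0.01 and −0.01 over all genes tested. For 9 of 9 genes every UUO library lay under every CL library, in WT mice (as for 35.8% of all genes) and in Acot12-/- mice (27.6%). With libraries scaled to equal total FPKM, which moved the median of all genes to 0.62 in WT and 0.45 in Acot12-/- kidneys, the medians of the 9 genes were −0.73 and −1.01 and 7 and 8 of 9 were called lower, beside 7.91% and 11.7% of all genes called lower and 64% and 57.6% called in either direction.

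**Figure D1:**
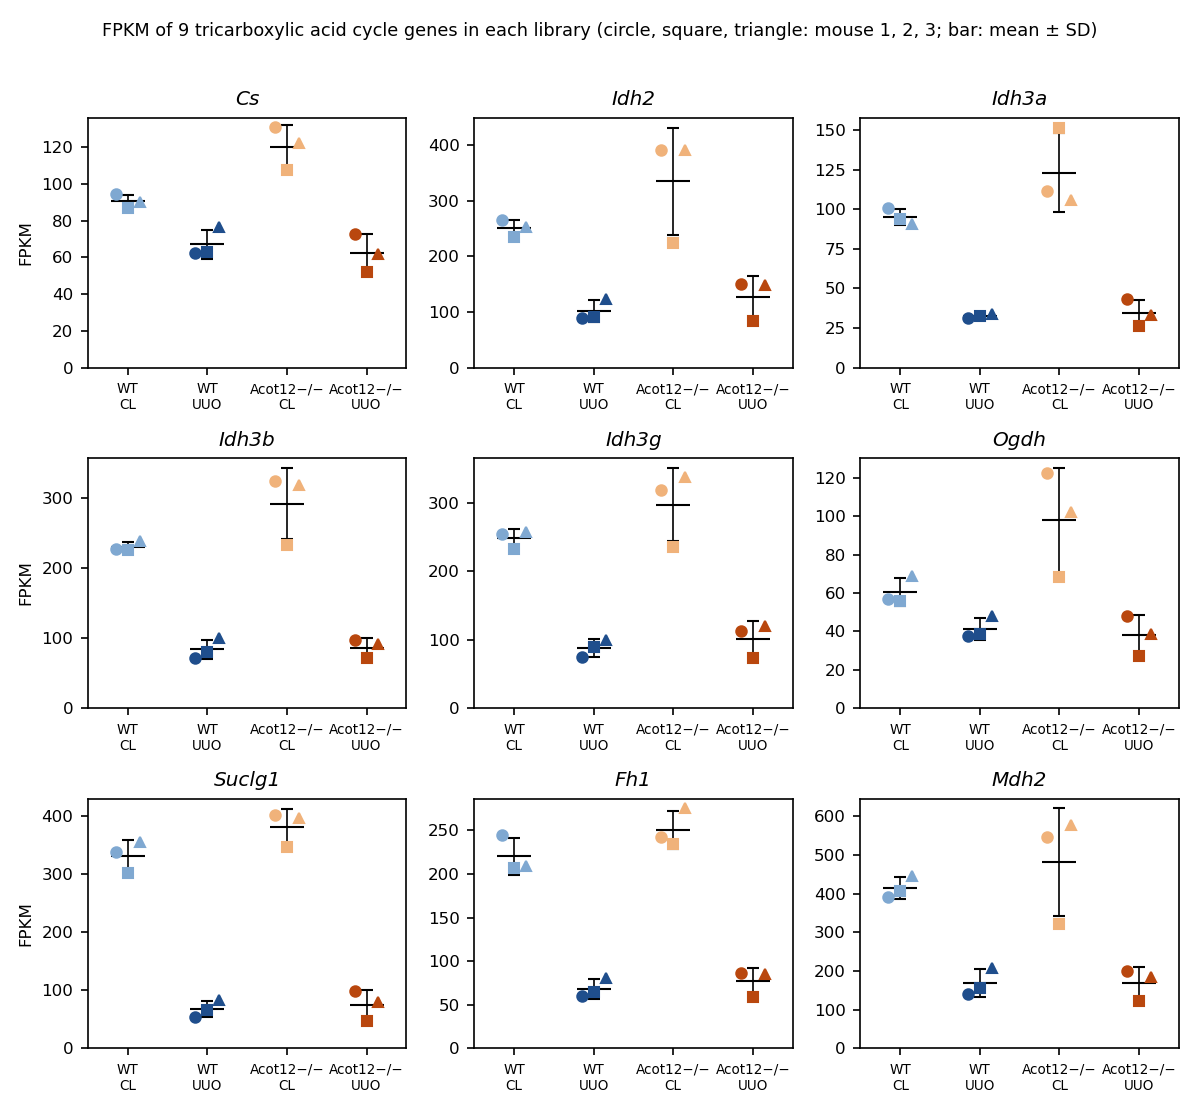
FPKM (vertical axes, each from 0) of the 9 cycle genes in the 12 libraries, by group (horizontal axis); symbols are mice 1 to 3, the long bar is the mean and the whiskers are the SD (n = 3). In every panel all 3 UUO libraries lie under all 3 CL libraries of the same genotype, and in Acot12-/- CL kidneys mouse 2 (square) is the lowest for 8 of 9 genes and the highest for Idh3a.

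Cs encodes citrate synthase, which joins acetyl-CoA to oxaloacetate at the entry of the cycle. It measured 94.2, 86.9 and 90.1 FPKM in WT CL and 62.3, 62.8 and 76.3 FPKM in WT UUO kidneys. The corresponding values in Acot12-/- mice were 131, 107 and 122 FPKM in CL and 72.9, 52.2 and 61.6 FPKM in UUO kidneys. The groups did not overlap, yet Cs had the smallest fold change of the 9 genes. The log2 difference was −0.43 in WT (SE 0.16, adjusted p = 0.0429). In Acot12-/- kidneys it was −0.95 (SE 0.16, adjusted p = 0.000365). By limma the WT call was lost when any WT library other than the UUO library of mouse 3 was left out (adjusted p 0.0379 to 0.139 over the 6). With equal total FPKM the WT value turned to 0.30 (adjusted p = 0.172) and the Acot12-/- value became −0.40 (adjusted p = 0.0749).

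Isocitrate is oxidized to 2-oxoglutarate by 2 kinds of mitochondrial enzyme, the NADP-dependent homodimer encoded by Idh2 and the NAD-dependent enzyme built from the catalytic subunit Idh3a and the partner subunits Idh3b and Idh3g. Idh2 measured 264, 235 and 252 FPKM in WT CL and 88.9, 90.8 and 124 FPKM in WT UUO kidneys. In Acot12-/- mice it measured 391, 223 and 390.4 FPKM in CL and 151, 83.7 and 148 FPKM in UUO kidneys. Mouse 2 was the lowest Acot12-/- library in both kidneys. Idh2 fell by 1.31 on the log2 scale in WT (SE 0.27, adjusted p = 0.00191). The knockout value was −1.39 (SE 0.27, adjusted p = 0.000992).

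Idh3a, the catalytic subunit, was the least abundant of the 3 subunits, with 101, 94.1 and 91.0 FPKM in WT CL and 31.1, 32.4 and 33.8 FPKM in WT UUO kidneys. Its Acot12-/- values were 112, 152 and 106 FPKM in CL and 43.2, 26.5 and 33.3 FPKM in UUO kidneys. Here mouse 2 was the highest CL and the lowest UUO library of the genotype, so that its UUO kidney held 17.5% of the CL level against 31.4% to 38.6% in the other 2 Acot12-/- mice. Idh3a fell by 1.53 in WT and by 1.82 in Acot12-/- kidneys on the log2 scale (SE 0.19 each, adjusted p = 6.77e-05 and 1.26e-05), and by 1.66 in the knockout without the CL library of mouse 2.

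The partner subunits both fell. Idh3b measured 226, 225 and 238 FPKM in WT CL, 71.9, 79.2 and 99.2 in WT UUO, 323, 233 and 319 in Acot12-/- CL and 97.02, 70.6 and 91.0 FPKM in Acot12-/- UUO kidneys. Idh3g, carried on the X chromosome, measured 255, 233 and 257 FPKM in WT CL, 74.5, 88.5 and 99.8 in WT UUO, 319, 236 and 338 in Acot12-/- CL and 113, 72.4 and 119.7 FPKM in Acot12-/- UUO kidneys. The log2 fold change of Idh3b was −1.46 in WT and −1.74 in Acot12-/- kidneys (SE 0.19 each, adjusted p = 8.75e-05 and 1.63e-05), and that of Idh3g −1.501 and −1.56 (SE 0.21 each, adjusted p = 0.00017 and 8.38e-05).

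Ratios within a library do not depend on how libraries are scaled, and 5 were tested by a two-sided exact permutation test of UUO against CL within genotypes (400 arrangements, smallest possible p 0.005, adjusted over the 5). The difference in log2 ratio was −0.09 for Idh3a to Idh3b (exact p = 0.70, adjusted p = 0.70), −0.16 for Idh3a to Idh3g (p = 0.47, adjusted p = 0.59) and −0.07 for Idh3b to Idh3g (p = 0.31, adjusted p = 0.52). No change in the balance of the subunits was thus detected. Idh3b to Idh3g stayed between 0.760 and 1.01 in the 12 libraries. Idh3a to Idh3b lay between 0.333 and 0.446 in 11 libraries and at 0.652 in the CL library of Acot12-/- mouse 2, and without that library its difference changed sign to 0.07. Idh2 to Idh3a, the NADP-dependent to the NAD-dependent route, differed by 0.35 (exact p = 0.145, adjusted p = 0.36). In the CL library of Acot12-/- mouse 2 this ratio was 1.47, against 3.49 and 3.68 in mice 1 and 3. Idh3a to Idh3g was 0.642 there, against 0.351 and 0.315. Without that library the differences were 0.131 for Idh2 to Idh3a and −0.0056 for Idh3a to Idh3g.

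Ogdh encodes the E1 subunit of the 2-oxoglutarate dehydrogenase complex, which makes succinyl-CoA and NADH. By group mean it was the least abundant of the 9 genes in CL kidneys, at 56.9, 55.9 and 68.9 FPKM in WT and 123, 68.3 and 102 FPKM in Acot12-/- mice. In UUO kidneys it measured 37.3, 38.8 and 48.0 FPKM in WT and 48.0, 27.03 and 38.7 FPKM in Acot12-/- mice. All UUO libraries lay under all CL libraries of their genotype. The WT difference of −0.54 did not pass the test (SE 0.24, adjusted p = 0.0844). By limma it passed when same-numbered CL and UUO kidneys were paired as a mouse (adjusted p = 0.0378 with mouse as a random block and 0.0062 with mouse as a fixed term). It also passed when only the WT groups were fitted (adjusted p = 0.00772), and with equal total FPKM the value turned to 0.18 (adjusted p = 0.533). In Acot12-/- kidneys Ogdh fell by 1.34 on the log2 scale (SE 0.24, adjusted p = 0.000597).

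Suclg1 encodes the alpha subunit shared by both forms of succinyl-CoA ligase, the step that makes a nucleoside triphosphate directly. It showed the largest fall of the 9 genes. In WT mice it measured 339, 302 and 355 FPKM in CL and 54.3, 66.5 and 83.0 FPKM in UUO kidneys, and in Acot12-/- mice 402, 347 and 396 FPKM in CL and 98.4, 46.4 and 80.0 FPKM in UUO kidneys. The second most abundant gene of the 9 in WT CL kidneys was thus sixth in WT UUO kidneys. The fold changes were −2.29 and −2.40 in WT and Acot12-/- kidneys on the log2 scale (SE 0.25 each, adjusted p = 3.24e-05 and 1.27e-05), and −1.56 and −1.85 with equal total FPKM, also called.

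The beta subunit paired with it sets the nucleotide: Suclg2 for GTP and Sucla2 for ATP. Suclg2 measured 118, 136 and 136 FPKM in WT CL and 52.4, 62.3 and 73.7 FPKM in WT UUO kidneys, while Sucla2 measured 198, 179 and 212 FPKM in WT CL and 49.2, 50.01 and 55.4 FPKM in WT UUO kidneys. The ratio of Suclg2 to Sucla2 in WT kidneys was therefore 0.595, 0.759 and 0.641 in CL and 1.07, 1.25 and 1.33 in UUO libraries, without overlap. In Acot12-/- kidneys it was 1.08, 0.890 and 1.17 in CL and 1.23, 1.06 and 1.18 in UUO libraries, which overlap. Over both genotypes the log2 ratio rose by 0.51 with UUO, by 0.87 in WT and by 0.15 in Acot12-/- mice, with p = 0.02 in the exact permutation test and an adjusted p of 0.10, which does not pass. Whether the genotypes differ in this ratio was not tested.

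Fh1 encodes fumarase, which hydrates fumarate to malate and is also found in the cytosol. It measured 244, 207 and 209 FPKM in WT CL, 59.6, 64.3 and 81.2 in WT UUO, 243, 235 and 276 in Acot12-/- CL and 86.6, 59.2 and 85.7 FPKM in Acot12-/- UUO kidneys. Its log2 fold change was −1.68 in WT and −1.71 in Acot12-/- kidneys (SE 0.19 each, adjusted p = 3.61e-05 and 1.73e-05).

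Mdh2, the mitochondrial malate dehydrogenase that closes the cycle by remaking oxaloacetate, was the most abundant of the 9 by mean in all 4 groups. It measured 390.3, 407 and 445 FPKM in WT CL, 142, 156 and 209 in WT UUO, 545, 323 and 578 in Acot12-/- CL and 199.9, 122 and 183 FPKM in Acot12-/- UUO kidneys. Mdh2 fell by 1.31 on the log2 scale in WT mice (SE 0.26, adjusted p = 0.00142). The knockout value was −1.498 (SE 0.26, adjusted p = 0.000408).

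The order of levels, compared per transcript length in FPKM, changed with UUO. By mean in WT CL kidneys it ran Mdh2, Suclg1, Idh2, Idh3g, Idh3b, Fh1, Idh3a, Cs and Ogdh, from 414 ± 28.0 to 60.6 ± 7.23 FPKM (SD, n = 3). Neighbours from Idh2 to Fh1 overlapped, as did Idh3a and Cs, while the others did not. In WT UUO kidneys it ran Mdh2, Idh2, Idh3g, Idh3b, Fh1, Suclg1, Cs, Ogdh and Idh3a, from 169 ± 35.4 to 32.4 ± 1.33 FPKM, and neighbours from Idh2 to Cs overlapped. As a share of the summed FPKM of the 9 genes, Suclg1 held 16.4% to 17.7% in WT CL and 8.74% to 9.79% in WT UUO libraries, Cs held 4.49% to 4.78% and 8.94% to 10.02%, and Ogdh held 2.89% to 3.43% and 5.62% to 6.00%. In Acot12-/- CL and UUO libraries the shares were 15.1% to 18.0% and 8.29% to 10.8% for Suclg1 and 4.65% to 5.58% and 7.32% to 9.32% for Cs. Those of Ogdh overlapped, at 3.55% to 4.75% in CL and 4.60% to 5.28% in UUO libraries. The ratio of Cs to Suclg1, a pair chosen after its values were seen and given without a test, was 0.254 to 0.287 in WT CL, 0.920 to 1.15 in WT UUO, and in knockout mice 0.308 to 0.325 in CL and 0.741 to 1.12 in UUO libraries.

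**Figure D2:**
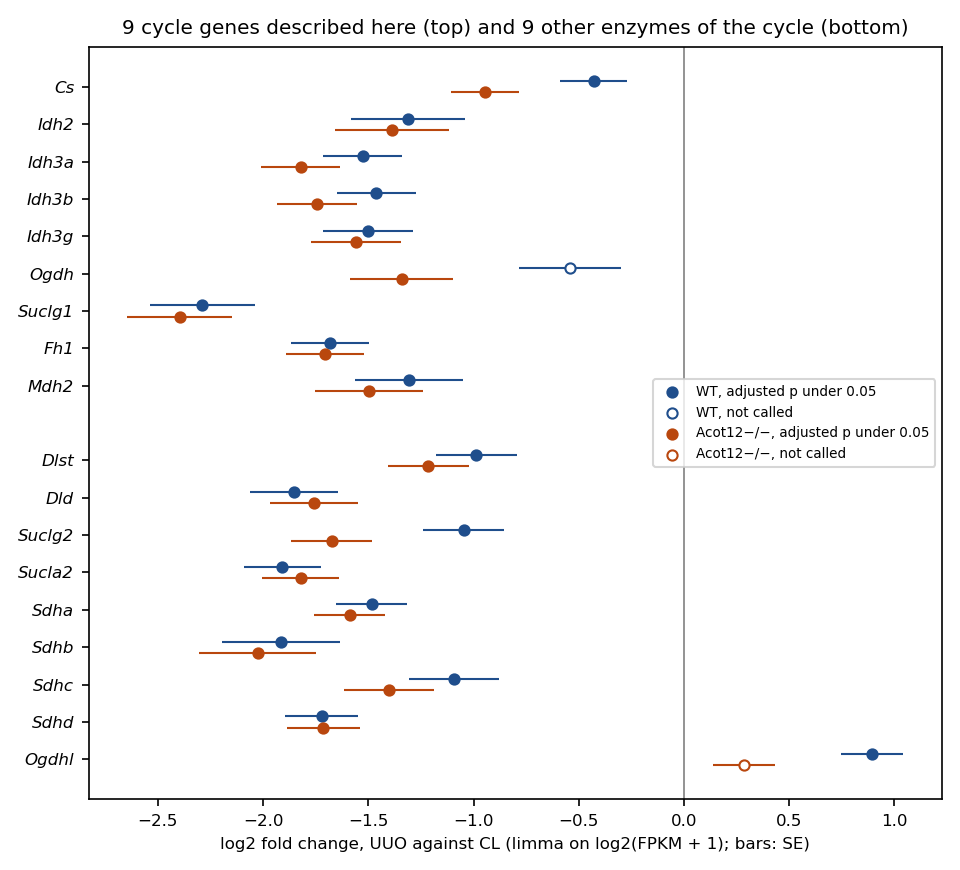
Log2 fold change of UUO against CL (horizontal axis, limma on log2(FPKM + 1)) for the 9 genes described here and 9 other cycle genes (rows); blue is WT, orange is Acot12-/-, bars are the SE, and open points did not pass an adjusted p of 0.05. Suclg1 lies farthest to the left of the 9, Cs and Ogdh lie nearest to 0 in WT (both turn positive there with equal total FPKM), and Ogdhl is the single gene to the right of 0.

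Most remaining enzymes of the cycle also fell. Of 10 such genes 9 were tested, and 8 fell in each genotype: the 2-oxoglutarate dehydrogenase partners Dlst (−0.99 in WT and −1.22 in Acot12-/- kidneys on the log2 scale) and Dld (−1.85 and −1.76), Suclg2 (−1.05 and −1.67), Sucla2 (−1.91 and −1.82) and the succinate dehydrogenase subunits Sdha (−1.48 and −1.59), Sdhb (−1.91 and −2.03), Sdhc (−1.09 and −1.40) and Sdhd (−1.72 and −1.71). Ogdhl, a paralog of Ogdh known mainly from brain, rose in WT kidneys by 0.89 (adjusted p = 0.000451), from 0.696, 0.527 and 0.558 FPKM in CL to 2.42, 2.10 and 1.43 FPKM in UUO libraries. These levels are far under those of Ogdh, and in Acot12-/- kidneys its difference of 0.29 did not pass (adjusted p = 0.123). With equal total FPKM 5 of the 9 tested fell in WT and 8 in Acot12-/- kidneys, and Ogdhl rose in both, by 0.64 in Acot12-/- kidneys (adjusted p = 0.0099 by limma). Csl, a citrate synthase-like gene, was listed at 0 in all 12 libraries and was not tested.

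Most genes of steps that feed, drain or copy the cycle fell as well. Beside these and the lists that follow, 23.9% of all genes tested were called lower in WT and 27.2% in Acot12-/- kidneys. At the entry of pyruvate, 10 of 13 genes fell and 1 rose in WT, and 11 fell and 2 rose in Acot12-/- kidneys. The mitochondrial pyruvate carrier subunits Mpc1 (−2.44 in WT) and Mpc2 (−1.70) fell most, and Pdk4, a kinase that switches pyruvate dehydrogenase off, rose by 1.17 in WT and by 0.89 in Acot12-/- kidneys. All 5 cytosolic or NADP-linked counterparts fell in both genotypes, led by the cytosolic malate dehydrogenase Mdh1 (−2.40 in WT) and malic enzyme Me1 (−1.79). With equal total FPKM 8 of the 13 fell and 2 rose in WT, and 3 of the 5 fell.

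Among 17 genes of filling and draining reactions, 13 fell and 1 rose in each genotype. Pyruvate carboxylase Pcx (−2.37 in WT) and the GABA transaminase Abat (−2.12) fell most, and the gene that rose was Pck2, the mitochondrial phosphoenolpyruvate carboxykinase (1.26 in WT and 1.11 in Acot12-/- kidneys). Of 8 mitochondrial carriers tested, 6 fell in each genotype, led in WT by the aspartate-glutamate carrier Slc25a13 (−1.78) and Slc25a21 (−1.71), a carrier of 2-oxoadipate and 2-oxoglutarate. All 3 tested genes of side metabolites fell in both, led by Adhfe1 (−3.43 in WT), a transhydrogenase linking 4-hydroxybutyrate and 2-oxoglutarate, and Nnt (−1.31), the transhydrogenase of the inner mitochondrial membrane that makes NADPH from NADH. With equal total FPKM 7 of the 17 fell and 3 rose in WT, 3 of the 8 fell and 2 rose, and 2 of the 3 fell.

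Genes of mitochondrial upkeep and regulators of the cycle showed medians nearer to 0. Of 24 genes of import, chaperones, porins, mitochondrial DNA upkeep and fusion, 17 fell in each genotype and the median was −0.69 in WT and −0.93 in Acot12-/- kidneys, against −1.46 and −1.56 for the 9 cycle genes, but with equal total FPKM the WT median turned to 0.02 with 4 lower and 2 higher. The matrix chaperones Hspe1 (−1.70 in WT) and Hspd1 (−1.46) fell most. Of 17 regulators, 9 fell and 3 rose in WT, and 9 fell and 2 rose in Acot12-/- kidneys. The mitochondrial deacetylase Sirt3 (−1.82 in WT) and the nuclear receptor Esrrb (−1.43) fell most, while the transcription factor Myc (2.87 in WT and 1.92 in Acot12-/-) and the PGC-1-related coactivator Pprc1 (0.99 and 0.90) rose. With equal total FPKM 3 regulators fell and 5 rose in WT, and their median turned from −0.46 to 0.12. That scaling moved the median of all genes in WT to 0.62, with 64% of them called and 7.91% called lower.

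The genes with a profile most like that of the 9 were ranked by the root mean square distance, over 12 libraries, between their centred log2(FPKM + 1) and the median of the 9 genes. The 10 nearest non-members were Nfs1 (distance 0.0711), Atp5a1 (0.0843), Echs1 (0.0853), Acad8 (0.0869), Letm1 (0.102), Ndufa9 (0.104), Fdx1 (0.107), Tm2d2 (0.114), Gatb (0.115) and Clybl (0.117). Among the 9 themselves the distance ran from 0.0636 for Idh3g and 0.0732 for Idh3b to 0.349 for Ogdh, 0.429 for Suclg1 and 0.438 for Cs. Cs, Suclg1 and Ogdh were the farthest of the 9.

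CL and UUO libraries with the same number within a genotype were compared as the kidneys of a mouse. The labels do not give this pairing. It rests on residual correlations of 0.13 to 0.36, a size also reached between UUO libraries of different genotypes (up to 0.45). In WT mice the UUO kidney held 66.1%, 72.3% and 84.7% of the CL level of Cs and 65.5%, 69.4% and 69.6% of that of Ogdh. In Acot12-/- mice it held 55.8%, 48.6% and 50.4% for Cs and 39.1%, 39.6% and 37.7% for Ogdh. For Suclg1 the shares were 16.03% to 23.4% in WT and 13.4% to 24.5% in Acot12-/- mice. For the other 6 genes they ran from 24.4% to 49.2% in WT and from 17.5% to 38.6% in Acot12-/- mice. The mice of the genotypes did not overlap for 3 of 9 genes, Cs, Ogdh and Idh3b (28.6% to 30.3% against 31.8% to 41.6%), all with less left in Acot12-/- kidneys, against 9.31% of all genes in that direction. In the other direction it was 0 of 9, against 11.2% of all genes.

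**Figure D3:**
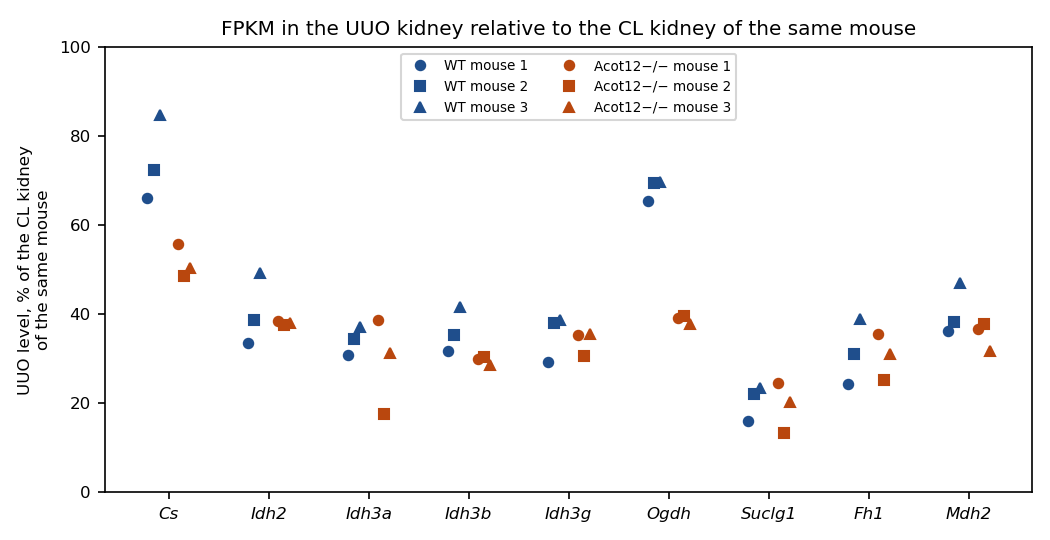
FPKM in the UUO kidney as a percent of the same-numbered CL kidney (vertical axis) for the 9 genes (horizontal axis). Blue is WT, orange is Acot12-/-, and each symbol is 1 such pair, taken as 1 mouse. For Ogdh the WT mice lie at 65.5% to 69.6% and the Acot12-/- mice at 37.7% to 39.6%, and for Suclg1 both genotypes lie between 13.4% and 24.5%.

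The difference in response between genotypes did not pass the test for any of the 9 genes. By limma 0 of 9 were called, beside 0.106% of all genes (14 of 13243), and 2 of 9, Cs and Ogdh, had an unadjusted p under 0.05 (10.5% of all genes). The interaction was −0.80 for Ogdh (95% interval −1.55 to −0.05, adjusted p = 0.442) and −0.52 for Cs (−1.01 to −0.02, adjusted p = 0.451), and −0.30 to −0.02 for the other 7. With mouse as a fixed term the adjusted p was 0.0775 for Ogdh and 0.267 for Cs, and 0 of 9 were called with the block in either form. All 9 values were negative, but those of Idh2, Idh3g, Suclg1, Fh1 and Mdh2 turned positive when single libraries were left out, and those of Idh3a, Idh3g, Suclg1 and Fh1 (0.010 to 0.13) when both kidneys of Acot12-/- mouse 2 were. In that setting Ogdh was at −0.82 (adjusted p = 0.071) and Cs at −0.48 (adjusted p = 0.139), with 0 of 9 called beside 3% of all genes. Without the CL library of that mouse alone 0 of 9 were called beside 6.8%. The interaction and the comparison of CL kidneys share their 6 CL libraries and are not separate evidence.

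In UUO kidneys no difference between genotypes was detected at these 9 genes. Between Acot12-/- and WT UUO kidneys 0 of 9 were called by limma and 0 had an unadjusted p under 0.05, with 0.0151% of all genes called and 2.36% at an unadjusted p under 0.05. The libraries of the genotypes overlapped for all 9, while 6.48% of all genes were lower and 5.5% higher in Acot12-/- mice without overlap. The log2 differences ran from −0.15 for Ogdh (95% interval −0.68 to 0.38) to 0.30 for Idh2 (−0.29 to 0.89), and the interval was narrowest for Cs (−0.11, from −0.46 to 0.23). These intervals do not show equal levels. The signs of Cs, Ogdh and Mdh2 turned positive without the UUO library of Acot12-/- mouse 2. Those of Idh3a, Idh3b, Suclg1 and Fh1 turned negative with equal total FPKM, which moved the median of all genes to −0.15.

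In CL kidneys all 9 genes were higher in Acot12-/- than in WT mice by mean, in every setting tried, but 0 of 9 were called, beside 4.48% of all genes called and 1.12% called higher. Differences ran from 0.17 for Mdh2 (95% interval −0.39 to 0.73) to 0.65 for Ogdh (0.12 to 1.18, adjusted p = 0.176), with a median of 0.33 beside 0.01 over all genes. Cs (0.40, adjusted p = 0.211) and Ogdh had an unadjusted p under 0.05 (17.3% of all genes). Cs and Idh3a did not overlap between genotypes, 2 of 9, against 8.6% of all genes in that direction. Of the companion genes 2 were called: Ogdhl was higher by 0.65 (adjusted p = 0.0293) and Pdk4 by 1.05 (adjusted p = 0.0273), with Pdk4 at 4.17, 3.48 and 4.84 FPKM in WT and 11.1, 6.02 and 13.1 FPKM in Acot12-/- CL libraries. Both calls were lost by limma with only the CL groups fitted (adjusted p = 0.11 and 0.16) and that of Ogdhl with equal total FPKM (adjusted p = 0.137). Leaving out any single CL library other than that of Acot12-/- mouse 2 also ended both, and without that library they were 0.75 for Ogdhl (adjusted p = 0.00782) and 1.35 for Pdk4 (adjusted p = 0.00153).

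The calls in CL kidneys depended on the library of Acot12-/- mouse 2. Without it, Ogdh (0.89, adjusted p = 0.0175) and Cs (0.48, adjusted p = 0.0417) were called higher by limma, 2 of 9, while 22.1% of all genes were called and 11.6% called higher. Without both kidneys of that mouse 4 of 9 were called higher, Idh2 (0.64, adjusted p = 0.0158) and Idh3b (0.48, adjusted p = 0.0316) in addition, beside 24.4% of all genes called and 13.7% called higher. Idh3a moved the other way, from 0.35 to 0.19. The fall with UUO in Acot12-/- kidneys held for 9 of 9 genes without that library, at −1.02 for Cs to −2.46 for Suclg1. In that library Ogdh (68.3 FPKM), Idh3b (233), Idh3g (236), Suclg1 (347) and Fh1 (235) lay within the range of the WT CL libraries. Cs (107) and Idh3a (152) lay above that range, and Idh2 (223) and Mdh2 (323) under it. Which of the Acot12-/- CL libraries depart from the true levels was not tested.

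Compared with the mean of mice 1 and 3, the CL library of Acot12-/- mouse 2 was higher for transcripts low in GC and lower for those high in GC. In 5 equal bins of 12767 genes by transcript GC (96.4% of those tested), the median difference in log2(FPKM + 1) was 0.65, 0.28, −0.05, −0.45 and −0.88. Of the 9 genes Idh3a, lowest in GC at 46.9%, was higher by 0.47, and Idh2 and Mdh2, both at 55.4%, were lower by 0.81 and 0.80. Fh1, at 47.7%, was lower by 0.14 while the median of its bin was 0.28. Across the 9 genes Pearson's r between GC and this difference was −0.93, and across all genes −0.77, both given as descriptions, since all points come from the same libraries. In the libraries of the other 3 groups the largest such r over all genes was 0.26 in size. The CL libraries of Acot12-/- mice 1 and 3 are not part of that number. From the lowest to the highest GC bin their medians went from −0.22 to 0.36 and from −0.40 to 0.52. Each was compared with a mean that includes mouse 2. The part of GC content in the genotype differences of CL kidneys was not tested.

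**Figure D4:**
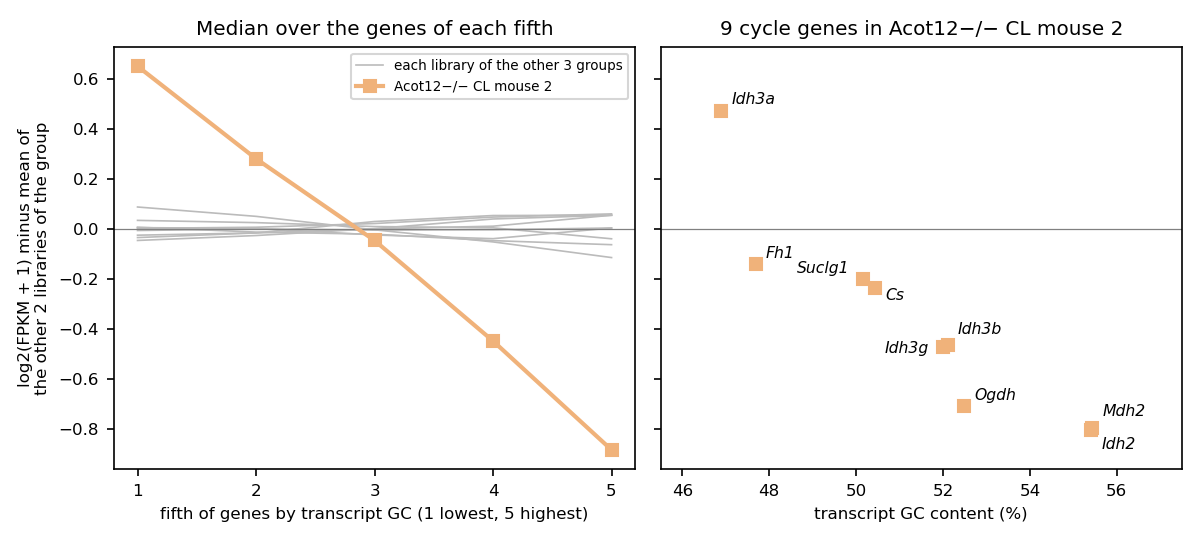
Left, median difference in log2(FPKM + 1) between a library and the mean of the other 2 of its group (vertical axis) in 5 bins of genes by transcript GC (horizontal axis); orange is the CL library of Acot12-/- mouse 2 and each grey line is a library of the other 3 groups. Right, the same difference for each of the 9 genes in that library against its GC content in percent: Idh3a is highest at 0.47, and Idh2 and Mdh2 are lowest at −0.81 and −0.80.

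The 9 genes and the proximal tubule markers were both lower in sum in every UUO than in every CL library. Their summed FPKM in WT mice was 1845 to 2007 in CL and 622 to 854 in UUO libraries. In Acot12-/- mice it was 1924 to 2627 in CL and 559.8 to 909 in UUO libraries. The sum of 10 proximal tubule markers (such as Lrp2, Slc34a1 and Aqp1, with none at 0) was 2064 to 2636, 357 to 712, 2594 to 4269 and 220.1 to 885 FPKM in the same groups. A few abundant markers weigh most in this sum. Slc34a1 was 2087 of the 4269 FPKM in the CL library of Acot12-/- mouse 1. Slc7a13 was 848 of the 2336 FPKM in the CL library of WT mouse 1 and 13.1 FPKM in its UUO library. Within each genotype the UUO libraries had the same order on both sums. The Acot12-/- CL libraries did not: mouse 1 had the highest marker sum (4269), but its cycle sum (2589) was under that of mouse 3 (2627). In WT UUO libraries the summed fibroblast markers also had this order (379, 398 and 545 FPKM), but not in Acot12-/- UUO libraries. The UUO kidney of Acot12-/- mouse 2 had the lowest marker sum and was the lowest of the 12 libraries for 9 of 9 genes, and among WT UUO kidneys mouse 1 was the lowest for 9 of 9 and mouse 3 the highest for 9 of 9, as for the marker sum. The ratio of the sums was 0.761 to 0.894 in WT CL and 1.20 to 1.74 in WT UUO libraries, and 0.606 to 0.766 in CL and 1.03 to 2.54 in UUO libraries of Acot12-/- mice, that is, higher in every UUO than in every CL library.

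Of the proximal tubule markers 9 of 10 fell in WT and 10 of 10 in Acot12-/- kidneys with UUO, with a median of −1.92 and −2.52. Of 10 markers of other tubule segments 9 fell in WT and 7 in Acot12-/- kidneys, and all 8 injured-tubule markers rose in both. Of all genes tested 47.5% were called in WT, 23.9% lower, and 53.7% in Acot12-/- kidneys, 27.2% lower. Macrophage markers rose for 8 of 9 in WT and 9 of 9 in Acot12-/- kidneys, lymphocyte markers for 4 of 5 in both, and fibroblast markers for 7 of 9 and 9 of 9. Endothelial markers were 1 higher and 3 lower of 6 in WT and 5 higher in Acot12-/- kidneys, and of 5 podocyte markers 1 rose and 1 fell in each. With equal total FPKM the WT counts turned to 3 higher and 0 lower for both lists, and the median of the endothelial markers from −0.25 to 0.36. Under that scaling 64% of all genes were called in WT and 7.91% called lower, and the median of all genes was 0.62. In Acot12-/- CL kidneys the 9 cycle genes were higher by mean but not called. There 5 of 6 endothelial, 3 of 9 macrophage, 3 of 5 lymphocyte and 3 of 9 fibroblast markers were called lower than in WT. Of 10 proximal tubule markers 0 were called there, with a median of 0.57 beside 0.33 for the 9 cycle genes. Of 10 markers of other tubule segments 1 was called lower, and of 8 injured-tubule and 5 podocyte markers 0 were called. Of all genes 4.48% were called in either direction and 1.12% called higher. These marker counts were not taken without the CL library of Acot12-/- mouse 2. The summed endothelial markers were 83.3 to 142 FPKM in WT CL and 27.1 to 51.2 FPKM in Acot12-/- CL libraries, and the macrophage markers 139 to 159 and 51.4 to 107 FPKM. In such bulk samples fewer cells of a type and less RNA per cell cannot be told apart, and the part of cell composition in these differences was not tested.

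**Figure D5:**
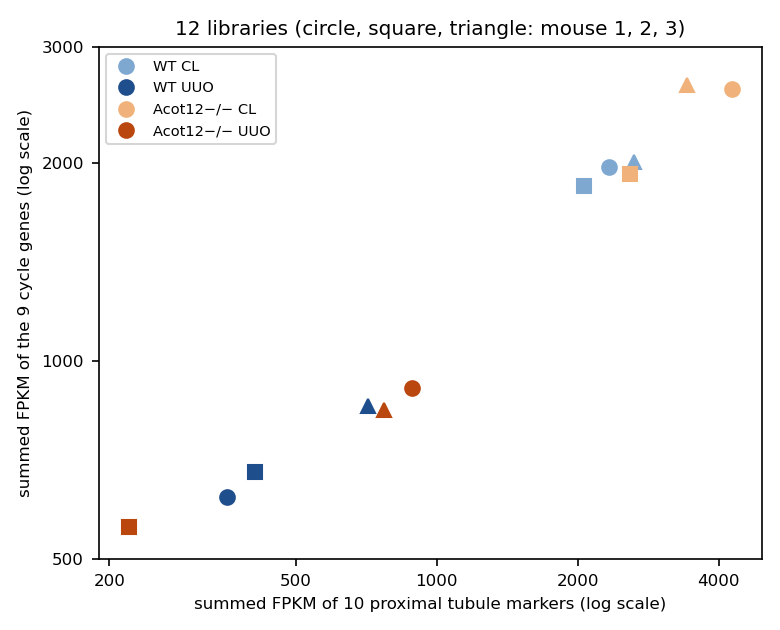
Summed FPKM of the 9 cycle genes (vertical axis, log scale) against the summed FPKM of 10 proximal tubule markers (horizontal axis, log scale) in the 12 libraries; colours are groups and symbols are mice. The UUO libraries lie at 220.1 to 885 on the marker axis and at 559.8 to 909 for the cycle genes, and the CL libraries at 2064 to 4269 and 1845 to 2627.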

How the data were processed

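RNA-seq was analysed in 12 libraries of kidney cortex, 3 in each of 4 groups set by the titles of the samples. The authors isolated total RNA, prepared libraries with a directional kit and sequenced them; read trimming, mapping and normalization were done by a service provider. The submitters' processing notes name mm10 and edgeR without a role. The aligner and the strand setting are not given in the sources used here. The deposited values are FPKM, a unit read from the values. The smallest values in a library step in whole reads, with a step set by transcript length. This step gives the depth, 12600000 to 22780000 fragments a library, or a scaled library size if values were scaled between libraries before deposit.

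FPKM are not counts, so limma 3.58.1 in R 4.3.3 was run on log2(FPKM + 1), with all 4 groups in 1 fit and a variance trend. Fold changes on this scale understate those of low genes. Genes with at least 1 FPKM in at least 3 libraries were tested, without 28 that were listed at 0 beside at least 10 FPKM in the same group, which left 13243. Calls needed an adjusted p (Benjamini-Hochberg, over all genes tested) under 0.05. Ratios were compared by an exact permutation test within genotypes. Both tests were checked on simulated data. Replicate numbers were taken to pair the kidneys of a mouse, which the labels do not say. Residuals of same-numbered CL and UUO libraries correlated at 0.13 to 0.36 in WT and 0.19 to 0.32 in Acot12-/- mice. The WT UUO library numbered 1 correlated at 0.13 with the CL library of its number and at 0.14 with that numbered 2. UUO libraries of different genotypes, which cannot share a mouse, reached 0.45, so these values do not settle the pairing. Across genotypes the numbers pair nothing.

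The members, lists and tests were chosen with earlier results of these data known. Named genes are the members, Acot12, the other cycle enzymes, per list up to 2 called rises and 2 called falls, those of largest size in WT, any listed gene called between genotypes, and the 10 nearest profiles. Alternatives were a pseudocount of 0.1, no low filter, median-ratio or equal-total scaling, mouse as a block, only the groups compared, no trend, genes listed at 0 kept, a fold change of at least 2, and each library left out. Leaving out both kidneys of Acot12-/- mouse 2 was added after seeing the data. Marker genes called between genotypes are given as counts. Of the lists, 2 genes are not reported here and were left out of the counts.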

Additional observations from a re-analysis of the deposited data

How the results depend on the processing

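The fall with UUO (limma) kept its direction for 9 of 9 genes in Acot12-/- kidneys in every setting and in WT kidneys in all but equal total FPKM, where Cs (0.30) and Ogdh (0.18) turned positive. Equal totals shift the median of all genes by 0.62 in WT and 0.45 in Acot12-/- kidneys, and raise the share of called genes that were higher (12.4% and 20.3% of calls were lower, against 50.3% and 50.5%). A single symbol, Kap, held up to 19.4% of a library's total. Under that scaling 7 and 8 of 9 genes were called, and between UUO kidneys Idh3a (−0.11), Idh3b (−0.12), Suclg1 (−0.076) and Fh1 (−0.0062) changed sign; the cause was not tested. With mouse as a replicate block (random or fixed) 9 of 9 were called in WT, beside 53.1% and 51% of all genes, as with only the groups compared, beside 64.8%. The block changed no other call of the 9 genes, and the ratios kept their direction.

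Of all genes, 2634 were called in WT and 3424 in Acot12-/- kidneys when a fold change of at least 2 was asked, from 6290 and 7114. Between UUO kidneys 2 genes were called, and 0 with a pseudocount of 0.1, no low filter, median-ratio factors, the block, only the groups compared or genes listed at 0 kept (246 to 751 at an unadjusted p under 0.05 in these settings). Between CL kidneys 593 were called, 333 with equal totals, 252 with a fold of at least 2 and 1 with only the groups compared. For the interaction 14 were called, 0 with no low filter or equal totals, 8 without the trend, and 203 and 83 with mouse as a random or fixed block. With both kidneys of Acot12-/- mouse 2 left out, 3214 genes and 4 of the 9 were called between CL kidneys and 395 genes for the interaction. The differences between UUO kidneys then became 0.0038 for Cs, 0.067 for Ogdh and 0.20 for Mdh2. The interaction became 0.029 for Idh3a, 0.010 for Idh3g, 0.13 for Suclg1 and 0.11 for Fh1.

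Leaving out 1 library gave 187 to 2918 genes between CL kidneys (2918 without the CL library of Acot12-/- mouse 2), 0 to 2 between UUO kidneys and 0 to 899 for the interaction (899 without that library), and 0 to 2 of the 9 between CL kidneys. Differences between UUO kidneys ranged from −0.23 to 0.0038 for Cs, −0.12 to 0.22 for Idh3a, −0.053 to 0.18 for Idh3b, −0.13 to 0.40 for Suclg1, −0.16 to 0.20 for Mdh2 and −0.34 to 0.067 for Ogdh. Interactions ranged from −0.34 to 0.20 for Idh2, −0.21 to 0.17 for Idh3g, −0.33 to 0.20 for Suclg1, −0.12 to 0.15 for Fh1 and −0.46 to 0.025 for Mdh2. The log2 ratio of Idh3a to Idh3b ranged from −0.17 to 0.068. Mouse as a fixed term could not be fitted for comparisons between genotypes, and only the groups compared was not run for the interaction. With 3 libraries a group and no counts, counting error enters only through the spread between libraries.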
